A study of Mus musculus with 2 samples.

Results

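The genes described here are 40 genes of the cell cycle and of DNA replication, taken by symbol from tables of 16263 genes in activated mouse macrophages. All 40 were found in both tables, and 29 of them were at 1 FPKM (fragments per kilobase, relative to the mapped total) or more in at least 1 library. The remaining 11 were Cdkn2c, E2f2, Mcm2, Mcm7, Cdc6, Rrm2, Ccnb1, Aurka, Aurkb, Plk1 and Bub1. They are kept in every count and median of the 40.

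RNA was sequenced from bone marrow-derived macrophages of SIRPα-KO mice (genotype SIRPalpha-/-) and of WT mice, all C57BL/6 per the labels, whose ages the labels do not state. SIRPα restrains myeloid cells when it meets CD47 on another cell, and the question put by the design is how its loss alters the transcriptome of inflammatory macrophages. Both groups had 5 days of culture with M-CSF, the macrophage growth factor, and then 6 h of interferon-γ at 20 ng/ml and lipopolysaccharide at 100 ng/ml with mCD47.ex present. Cells of 5 mice per genotype were mixed, which leaves 1 library per genotype and no replicate check of any difference. The labels do not describe the targeted allele.

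Each library held about 11000000 reads, as estimated from the step between low values. The targeted gene Sirpa was at 71.5 FPKM in the library labelled SIRPα-KO and at 154 FPKM in WT, so its transcript was still present there. Sex-linked transcripts differed as well: Xist stood at 0.91 FPKM in SIRPα-KO and 47.5 FPKM in WT, and Ddx3y at 11.6 in SIRPα-KO and listed at 0 in WT. Genotype and the sex of the mice therefore cannot be told apart in any value given here. All 10 macrophage markers were at 1 FPKM or more, with summed levels of 11038.5 FPKM in SIRPα-KO and 11259.4 FPKM in WT. Of these markers 1 was lower by the 2-fold limit used here: Csf1r, which encodes the receptor for M-CSF, at 109.8 FPKM in SIRPα-KO and 248 FPKM in WT, and its part in the values of the 40 genes was not tested.

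A cell commits to division in G1, when D-type cyclins with the kinases CDK4 and CDK6, and then E-type cyclins with CDK2, inactivate the retinoblastoma protein and release E2F transcription factors. E2F factors drive genes of replication licensing, in which CDC6 and CDT1 load the MCM helicase onto DNA. Cyclins A and B with CDK1 then carry the cell into mitosis. Inhibitors such as p21 (Cdkn1a) hold the kinases back. M-CSF makes macrophages divide, and interferon-γ and lipopolysaccharide are both known to arrest that division in G1.

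E2F factors bind sites near the start of their target genes, and windows of 300 bases around gene starts (250 before and 50 after, from RefSeq on GRCm38.p6) were found for 32 of the 40 genes. The E2F motif was searched as TTTCCCGC, TTTCGCGC, TTTGCCGC or TTTGGCGC on both strands. It was held by 2.26% of all 32851 windows and by 10 of the 38 windows of the 32 genes. These windows belonged to 10 genes: Mcm3, Mcm5, Mcm6, Mcm7, Cdt1, Cdc6, Cdk1, Cdk2, E2f2 and E2f3. In 1 of these, Mcm7, a site overlapped a CCAAT motif. The sites of the licensing genes are given next, since 2 of these genes, Mcm6 and Cdt1, carry the lowest log2 ratios of the 40 outside the cyclins. Capitals mark the motif, and each sequence runs 5′ to 3′ along the gene.
Mcm6, chr1:128359796-128359823, minus strand: cgtatgctTTTGGCGCGAAAagtgcgtg
Mcm6, chr1:128359737-128359760, minus strand: tggacgggTTTGGCGCgaagtagc
Cdt1, chr8:122568039-122568062, plus strand: actaccttTTTGGCGCcatggcgc
Mcm5, chr8:75109348-75109375, plus strand: ccaagaacTTTCGCGCCAAAacgtccag
Mcm3, chr1:20820278-20820301, minus strand: cttccgtgGCGGGAAAacttggga
Mcm3, chr1:20820263-20820282, minus strand: tgggaagtTTTGGCGCcaag
Mcm7, chr5:138172033-138172056, minus strand: ttcgaaccGCGGGAAAcagggtgt
Mcm7, chr5:138171852-138171875, minus strand: tgacgacgTTTCGCGCcaatttcg
Cdc6, chr11:98908005-98908028, plus strand: ggtggagaGCGGGAAAtcgcctgg
In Mcm6 the first site lay 110 bases before the gene start and held a pair of overlapping matches on opposite strands, and Mcm5 had a like pair 153 bases before its start. The Cdt1 site lay just after the gene start. Windows of Aurkb, Ccna2, Ccnd1, Ccnd2, Ccne2, Gins2, Mcm4 and Rb1 were not analysed here.

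Of the 40 genes, 4 were lower and 0 higher in SIRPα-KO by at least 2-fold on FPKM + 1, which is the limit used for a call. The 4 were cyclin D1 (Ccnd1), the helicase subunit Mcm6, the licensing factor Cdt1 and cyclin E1 (Ccne1). Calls of lower genes made up 2.67% of all 16263 genes and 4.3% of the 10092 genes at 1 FPKM or more in a library, against 10% of the 40. Calls of higher genes made up 2.13% and 3.43% of the same gene sets. Because the 40 genes were chosen with earlier results of these data known, the share is a description. The median log2 ratio, SIRPα-KO over WT of FPKM + 1, was -0.15 over the 40 genes, against 0.00 over all genes and 0.06 over those at 1 FPKM or more. Values were below 0 for 25 of the 40 genes and above 0 for 15. Among all 16263 genes they were below 0 for 7030 and above 0 for 8140. Among the 10092 genes at 1 FPKM or more in a library they were below 0 for 4421 and above 0 for 5662. These all-gene counts stand beside each later count of values below 0, which is likewise a description. In bulk RNA, fewer dividing cells and less of a transcript per cell cannot be told apart.

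**Figure D1:**
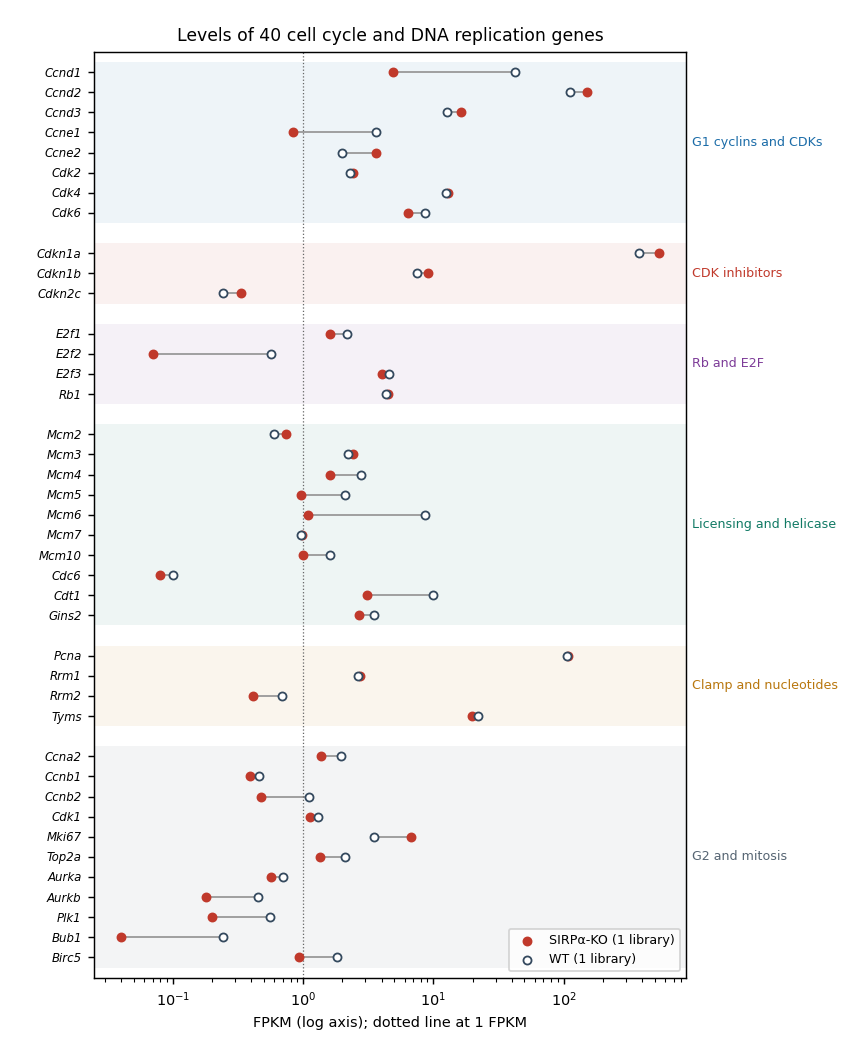
Level of each gene in FPKM on a log axis, by role, with SIRPα-KO as filled and WT as open points (1 library each). Cdkn1a, Ccnd2 and Pcna lie above 100 FPKM in both libraries, most mitotic genes lie near or below 1 FPKM, and Ccnd1, Ccne1, Mcm6 and Cdt1 show wide gaps.

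The D-type cyclins, which are induced by growth factors, differed in opposite directions. Ccnd1 (gene number 12443) was at 4.88 FPKM in SIRPα-KO and 42.1 FPKM in WT, from about 201 and 1731 reads. Its SIRPα-KO level was 11.6% of the WT level, with an exact Clopper-Pearson 95% interval of 9.98% to 13.4% that covers counting error only, and its log2 ratio of -2.87 was the 23rd lowest among 10092 genes. Oraov1, a gene that overlaps Ccnd1 in the RefSeq annotation, was at 9.04 FPKM in SIRPα-KO and 7.99 FPKM in WT.

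Cyclin D2 (Ccnd2) was the most abundant cyclin of the 40 genes, at 152 FPKM in SIRPα-KO and 112 FPKM in WT, a log2 ratio of 0.45. Cyclin D3 (Ccnd3) was at 16.4 FPKM in SIRPα-KO and 12.8 FPKM in WT, a log2 ratio of 0.34. Both were above WT beyond counting error, with intervals of 133% to 141% and 110.0% to 150.3% of the WT level, and short of 2-fold. The sum of the D-type cyclins was therefore similar, at 174 FPKM in SIRPα-KO and 166 FPKM in WT, while its makeup differed. Ccnd1 made up 2.81% of that sum in SIRPα-KO and 25.3% in WT, and Ccnd2 made up 87.7% and 67.0% in the same libraries. Ccnd1 was thus the least abundant D-type cyclin in SIRPα-KO and the second most abundant in WT. Bysl, which overlaps Ccnd3 in the RefSeq annotation, was at 2.82 FPKM in SIRPα-KO and 1.74 FPKM in WT. The part of Bysl in the Ccnd3 value was not tested.

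Of the E-type cyclins, which act with CDK2 at the entry into S phase, Ccne1 (gene number 12447) was at 0.84 FPKM in SIRPα-KO and 3.6 FPKM in WT, about 18 and 79 reads. That is 23.3% of the WT level, with a counting interval of 12.9% to 38.4%, and a log2 ratio of -1.32. Its paralogue Ccne2 went the other way without reaching 2-fold, at 3.64 FPKM in SIRPα-KO and 1.99 FPKM in WT, a log2 ratio of 0.63 with an interval of 134% to 249%. The more abundant of the pair was thus Ccne2 in SIRPα-KO and Ccne1 in WT. Ccne1 made up 18.8% of the E-type sum in SIRPα-KO and 64.4% in WT. Ints8, which overlaps Ccne2 in the RefSeq annotation, was at 30.3 FPKM in SIRPα-KO and 15.7 FPKM in WT. The labels do not say whether the counting used strand, so reads of overlapping genes may not be separated, and the part of Ints8 in the Ccne2 value was not tested.

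**Figure D2:**
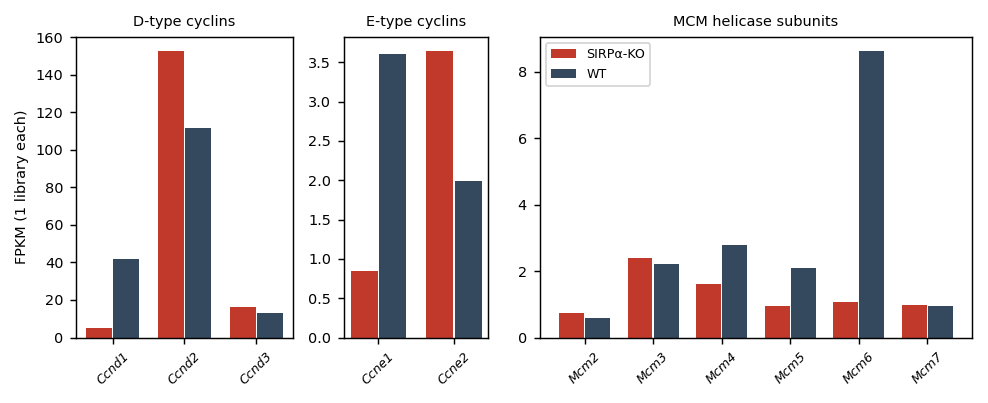
FPKM of the D-type cyclins, the E-type cyclins and the MCM helicase subunits Mcm2 to Mcm7, with SIRPα-KO bars left of WT bars (1 library each, each panel with its own scale from 0). Ccnd1 and Mcm6 are the bars that are tall in WT and short in SIRPα-KO, and the Ccne1 and Ccne2 bars swap their order.

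The kinases that these cyclins activate differed less. Cdk4 was at 12.9 FPKM in SIRPα-KO and 12.5 FPKM in WT, and Cdk2 at 2.43 FPKM and 2.29 FPKM in the same libraries, with counting intervals that include equality. In the RefSeq annotation Cdk4 overlaps Tspan31 (42.8 FPKM in SIRPα-KO, 52.8 in WT) and Cdk2 overlaps Pmel (2.53 and 1.25). The part of these overlapping genes in the values of Cdk4 and Cdk2 was not tested. Cdk6 was at 6.38 FPKM in SIRPα-KO and 8.61 FPKM in WT, or 74.1% of the WT level with an interval of 67.6% to 81.2%. The median log2 ratio of the 8 G1 cyclins and kinases was 0.05, with 2 called lower and 0 higher.

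Among the kinase inhibitors, Cdkn1a, which encodes p21, was the most abundant of all 40 genes. It was at 546 FPKM in SIRPα-KO and 377 FPKM in WT, which ranked it 113th in SIRPα-KO and 185th in WT among the genes of the tables. The SIRPα-KO level was 145% of WT with a counting interval of 139.8% to 149.4%, and the log2 ratio of 0.53 was short of a call. Cdkn1b, which encodes p27, was at 9.02 FPKM in SIRPα-KO and 7.44 FPKM in WT. Cdkn2c, the inhibitor p18 of CDK4 and CDK6, was close to the limit of detection at 0.33 FPKM in SIRPα-KO and 0.24 FPKM in WT, about 4 and 3 reads. All 3 inhibitors of the 40 genes thus had values above WT, by log2 ratios of 0.10 to 0.53, and 0 of the 3 were called. The counting intervals of Cdkn1b and Cdkn2c include equality. Inhibitor genes outside the 40 went both ways. Cdkn1c was at 4.42 FPKM in SIRPα-KO and 8.49 FPKM in WT, and Cdkn2d at 16.9 and 21.4. Cdkn2b was at 1.69 FPKM in SIRPα-KO and 0.13 FPKM in WT, and Cdkn2a at 0.4 and 0.21. Set against cyclin D1, p21 transcript was 112 times as abundant in SIRPα-KO and 8.97 times as abundant in WT on the FPKM scale, while its ratio to cyclin D2 was 3.58 in SIRPα-KO and 3.38 in WT.

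The retinoblastoma gene Rb1 was at 4.45 FPKM in SIRPα-KO and 4.32 FPKM in WT. Of the activator E2F factors it restrains, E2f3 was at 4 FPKM in SIRPα-KO and 4.58 FPKM in WT, and E2f1 at 1.61 FPKM and 2.15 FPKM. The counting intervals of these 3 genes include equality. Lpar6, which overlaps Rb1 in the RefSeq annotation, was at 0.98 FPKM in SIRPα-KO and 1.87 FPKM in WT. The part of Lpar6 in the Rb1 value was not tested. E2f2 was at 0.07 FPKM in SIRPα-KO and 0.57 FPKM in WT, about 4 and 30 reads, or 12.3% of the WT level with an interval of 3.41% to 37.8%. At such levels the added 1 FPKM holds the log2 ratio at -0.55, so that E2f2 was not called.

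**Figure D3:**
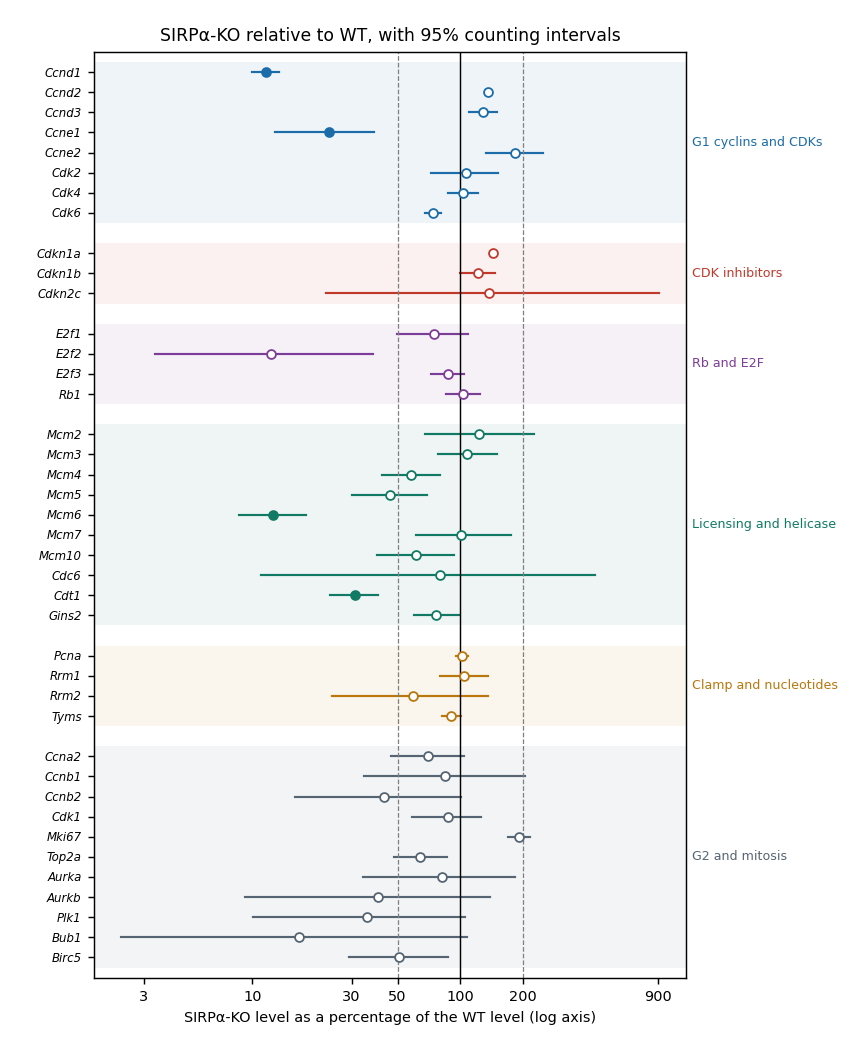
SIRPα-KO level as a percentage of the WT level on a log axis, with exact 95% counting intervals from estimated reads (filled points: called lower; solid line: 100%; dashed lines: 50% and 200%). Ccnd1, Mcm6, Cdt1 and Ccne1 lie left of the 50% line with their whole intervals, as does E2f2, which was too low to be called.

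Replication licensing genes showed the next large difference. The MCM helicase is a ring of 6 different subunits, Mcm2 to Mcm7, of which 1 stood apart in level. Mcm6 (gene number 17219) was at 1.08 FPKM in SIRPα-KO and 8.62 FPKM in WT, about 35 and 276 reads. That is 12.5% of the WT level, with a counting interval of 8.65% to 18.1%, and the log2 ratio of -2.21 was the 51st lowest among 10092 genes.

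Its partner subunits did not share this difference in size. Mcm2 was at 0.74 FPKM in SIRPα-KO and 0.6 FPKM in WT, Mcm3 at 2.39 and 2.21, and Mcm7 at 0.97 and 0.96, with log2 ratios of 0.01 to 0.12. Mcm4 was at 1.61 FPKM in SIRPα-KO and 2.78 FPKM in WT, and Mcm5 at 0.96 and 2.09, which are 57.9% and 45.9% of the WT level with intervals below 100%, without a call. In WT, Mcm6 alone made up 49.9% of the summed FPKM of the 6 subunits, against 13.9% in SIRPα-KO. Without Mcm6 the sum was 6.67 FPKM in SIRPα-KO and 8.64 FPKM in WT. The genes on either side of Mcm6, Dars and Lct, were at 9.53 FPKM in SIRPα-KO and 7.3 FPKM in WT for Dars, and listed at 0 in both for Lct. Of the 50-base words of Mcm7, 18.1% also occur in another gene, mostly Gm5487, so that its value is uncertain. In the RefSeq annotation Mcm7 also overlaps Ap4m1, at 1.2 FPKM in SIRPα-KO and 1.23 FPKM in WT. The part of Ap4m1 in the Mcm7 value was not tested.

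Cdt1 (gene number 67177), the factor that brings the helicase to origins, was at 3.08 FPKM in SIRPα-KO and 9.92 FPKM in WT, about 74 and 239 reads. It stood at 31.1% of the WT level with a counting interval of 23.5% to 40.3%, a log2 ratio of -1.42. Cdc6, its partner in loading, was nearly absent, at 0.08 FPKM in SIRPα-KO and 0.1 FPKM in WT, about 3 and 4 reads. Mcm10, which acts when the helicase is started, was at 0.99 FPKM in SIRPα-KO and 1.61 FPKM in WT. Gins2, a subunit of the active helicase, was at 2.67 FPKM in SIRPα-KO and 3.49 FPKM in WT. Both were below WT beyond counting error, at 61.5% and 76.5%. Gse1, which overlaps Gins2 in the RefSeq annotation, was at 3.55 FPKM in SIRPα-KO and 3.58 FPKM in WT. Its part in the Gins2 value was not tested. Over the 10 licensing and helicase genes the median log2 ratio was -0.34, with 2 called lower, 0 higher and 7 of 10 below 0. Of the 10 genes with an E2F motif in their window, 2 were called lower, and of the 22 genes whose windows did not hold these letters, 1. Lower calls made up 2.67% of all 16263 genes. Ccnd1, also called lower, had no window analysed. With so few calls and a motif chosen with earlier results known, these counts are a description and no contrast is drawn from them.

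Of the later replication genes, Pcna and Rrm1 were near equality. Pcna, the sliding clamp of the DNA polymerases, was one of the most abundant of the 40 genes, at 109 FPKM in SIRPα-KO and 106 FPKM in WT. Thymidylate synthase (Tyms), which makes dTMP, was at 19.8 FPKM in SIRPα-KO and 21.9 FPKM in WT. The large subunit of ribonucleotide reductase, Rrm1, was at 2.74 FPKM in SIRPα-KO and 2.62 FPKM in WT, and its small subunit Rrm2, which is made in S phase, at 0.41 and 0.69. Counting intervals of all 4 include equality, and 0 of 4 were called. Rrm2 stood at 59.4% of the WT level from about 10 reads in SIRPα-KO and 17 in WT. Its wide interval of 24.1% to 136% does not show equality. Pcna shares 19.1% of its 50-base words with its pseudogene Pcna-ps2, and its level is uncertain to that extent.

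Mitotic genes were low in both libraries. Of the 11 genes of G2 and mitosis, 0 were called, 10 had log2 ratios below 0, and the median was -0.30. Their summed level was 13.3 FPKM in SIRPα-KO and 14.2 FPKM in WT, and without Mki67 it was 6.62 FPKM in SIRPα-KO and 10.7 FPKM in WT. Mki67, the gene of the proliferation antigen Ki-67, was the only one with a value above WT, at 6.7 FPKM in SIRPα-KO and 3.49 FPKM in WT, or 192% with a counting interval of 169.5% to 217.7%. Its log2 ratio of 0.78 was the highest of the 40 genes.

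Topoisomerase IIα (Top2a), which untangles sister chromosomes, was at 1.35 FPKM in SIRPα-KO and 2.11 FPKM in WT. Birc5, which encodes survivin of the chromosomal passenger complex, was at 0.93 FPKM in SIRPα-KO and 1.83 FPKM in WT. These 2 were below WT beyond counting error, at 64.0% and 50.8%. The kinase Cdk1 was at 1.13 FPKM in SIRPα-KO and 1.3 FPKM in WT, and its cyclins were at 1.36 and 1.94 for Ccna2, 0.39 and 0.46 for Ccnb1, and 0.47 and 1.1 for Ccnb2. Aurka, Aurkb, Plk1 and Bub1, kinases of the spindle and its checkpoint, lay between 0.04 and 0.57 FPKM in SIRPα-KO and between 0.24 and 0.7 FPKM in WT. For these 8 genes the counting intervals include equality, and Bub1 rests on about 2 reads in SIRPα-KO and 9 in WT. Ccnb1 is uncertain, since 23.4% of its 50-base words also occur in other genes, mostly its pseudogene Ccnb1-ps. In the RefSeq annotation Exosc9 (8.91 FPKM in SIRPα-KO, 7.76 in WT) overlaps Ccna2, and Cstf1 (9.25 and 7.98) overlaps Aurka. The part of Exosc9 and Cstf1 in the values of Ccna2 and Aurka was not tested.

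Counting error separates the genes further. The interval lay below 100% for 12 of the 40 genes, of which 8 were not called, above 100% for 5, and included 100% for 23. The 5 above were Ccnd2, Ccnd3, Ccne2, Cdkn1a and Mki67. Intervals were computed for the 40 genes alone, so no share over all genes stands beside these counts, and they are a description. They also depend on scaling where a bound lies near 100%, as for Gins2 with an upper bound of 98.4%. These intervals say nothing of the spread between mice or cultures, which a single mixed library per genotype does not show.

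**Figure D4:**
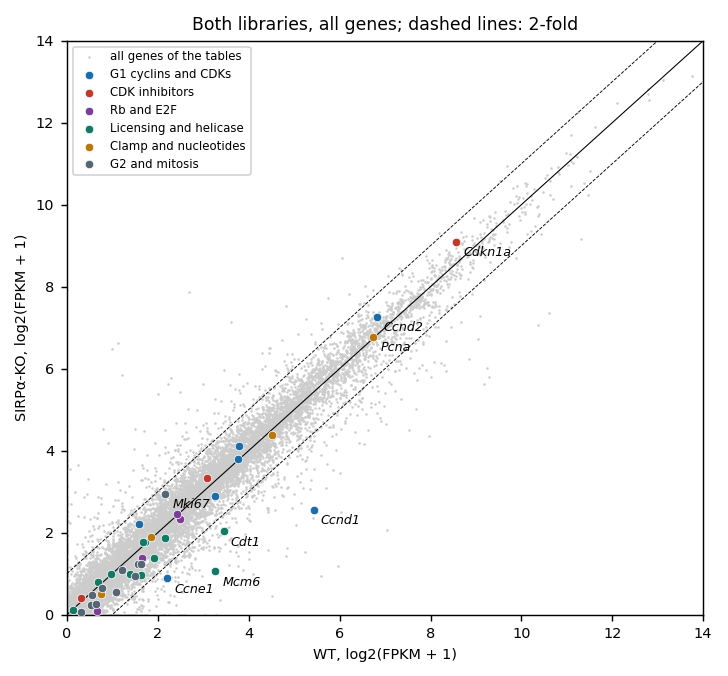
Each gene of the tables as log2(FPKM + 1) in SIRPα-KO (vertical) and in WT (horizontal), with the 40 genes coloured by role (solid line: equality; dashed lines: 2-fold). Ccnd1, Mcm6, Cdt1 and Ccne1 lie below the lower dashed line, and the other 36 lie between the dashed lines.

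Other genes of the pathway were read from wider lists, which share a few genes. Calls over all 16263 genes were 2.67% lower and 2.13% higher, and these shares stand beside the counts of each list below. The lists hold few calls, so their counts, and those of the annotation terms and marker lists, are a description. Of 33 other genes of G1 control, 2 were higher and 0 lower, with a median of 0.04. The higher ones were the repressive E2F factor E2f5, at 13.9 FPKM in SIRPα-KO and 5.91 FPKM in WT, and Cdkn2b, the inhibitor p15 of CDK4 and CDK6, at 1.69 FPKM and 0.13 FPKM. The most abundant gene of this list, the MYC partner Max, was at 236 FPKM in SIRPα-KO and 180.2 FPKM in WT.

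Of 60 other replication genes, 1 was higher and 0 lower, with a median of 0.00. That gene was Pold2, a subunit of DNA polymerase δ, at 6.02 FPKM in SIRPα-KO and 2.24 FPKM in WT. The most abundant was Samhd1, an enzyme that breaks down deoxynucleotides, at 1163 FPKM in SIRPα-KO and 986 FPKM in WT. Of 50 other mitosis genes, 1 was higher and 0 lower, with a median of -0.12 and 36 of 50 below 0. The higher one was Wee1, the kinase that holds CDK1 inactive, at 7.52 FPKM in SIRPα-KO and 2.68 FPKM in WT. Pttg1, or securin, was the most abundant, at 101 FPKM in SIRPα-KO and 141 FPKM in WT.

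Among 30 genes of p53, its regulators and its targets, Cdkn1a included, 1 was higher and 4 lower, with a median of -0.02. Lower were Gadd45a, a stress gene that binds PCNA (1.93 FPKM in SIRPα-KO, 9.11 in WT), the kinase Plk3 (0.83 and 3.29), Gadd45g (3.3 and 8.52) and Mdm2, the ubiquitin ligase of p53 (111 and 236). Higher was the nuclease Aen, at 9.48 FPKM in SIRPα-KO and 4.18 FPKM in WT. Cdkn1a, the most abundant of the list, therefore stood above WT while Mdm2, another well-known target, stood below it.

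**Figure D5:**
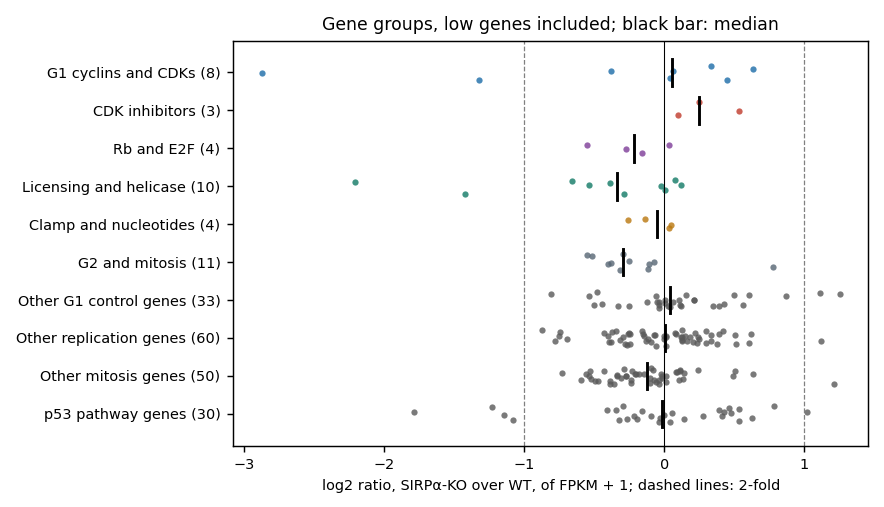
Log2 ratio of FPKM + 1, SIRPα-KO over WT, for each gene of the 6 roles and of the other lists, with the number of genes in brackets (black bar: median; dashed lines: 2-fold). The p53 list includes Cdkn1a. Medians lie between -0.34 and 0.25, and only Ccnd1 and Mcm6 lie beyond -2.

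The annotation terms in the deposited tables were also read, with terms chosen after the tables were seen. Among genes other than the 40, the calls were 2 higher and 0 lower of 90 annotated to S phase, 2 and 0 of 19 annotated to G1 phase, 1 and 0 of 24 annotated to the G1/S transition, and 2 and 0 of 35 annotated to DNA-dependent DNA replication. The called gene not yet named was Rnaseh1, which removes RNA from RNA-DNA hybrids, at 12.9 FPKM in SIRPα-KO and 5.16 FPKM in WT. Of 145 genes annotated to the mitotic M phase, 5 were higher and 0 lower. Besides Wee1 these were Dynlt1b, Dynlt1c, Tubb2a and Tubb2b, which share from 36.9% to 84.4% of their 50-base words with other genes and are uncertain. Of 104 genes annotated to cell cycle arrest, 1 was higher and 1 lower, Wee1 and Mdm2. Outside the 40 genes, the most abundant gene of each term differed by less than 2-fold: E2f4 for G1 phase (27.7 FPKM in SIRPα-KO, 27.6 in WT), Ptpn6 for the G1/S transition (279 and 296), Psme2 for S phase and for arrest (626 and 542), Rfc3 for replication (22.2 and 24.7) and Rpl24 for M phase (268 and 286).

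Marrow cultures can hold cells of other lineages, dividing precursors among them, and markers of these lineages were read beside these genes. Of 10 genes of granulocytes and their precursors, 5 were lower and 0 higher, with a summed level of 280.0 FPKM in SIRPα-KO and 534 FPKM in WT, and none was at 0. Most of this sum came from S100a9, S100a8 and Lcn2 in both libraries, so it is not a measure of dividing precursors. The lower genes were S100a9, the most abundant (98.1 FPKM in SIRPα-KO, 202 in WT), S100a8 (62.6 and 133), Ngp (24.7 and 68.8), Camp (1.41 and 5.59) and Elane (0.5 and 3.36). Of the 5 that were not called, 1 lay above WT and 4 below: Mpo was at 3.34 FPKM in SIRPα-KO and 2.38 FPKM in WT, Ctsg at 1.37 and 1.44, Lcn2 at 84.5 and 109.6, Prtn3 at 2.42 and 4.61, and Ltf at 0.98 and 2.71. The 8 progenitor markers, Kit and Cd34 among them, summed to 4.74 FPKM in SIRPα-KO and 3.35 FPKM in WT, with 0 called and Hoxa9 at 0 in both. Myb was at 2.09 FPKM in SIRPα-KO and 0.64 FPKM in WT, and the other 7 summed to 2.65 FPKM in SIRPα-KO and 2.71 FPKM in WT. The 6 erythroid markers found summed to 3.03 FPKM in SIRPα-KO and 2.31 FPKM in WT, with 0 called and Klf1 at 0 in both. B cell markers (7 found, 0 called) summed to 2.5 FPKM in SIRPα-KO and 5.91 FPKM in WT, with Vpreb1 at 0 in both and Rag1 in WT. The summed level of the granulocyte list was thus lower in SIRPα-KO, as were Mcm6, Cdt1 and Ccnd1, and its part in their values was not tested.

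T and NK cell markers (8 found) summed to 27.2 FPKM in SIRPα-KO and 19.7 FPKM in WT, with 1 higher and 0 lower. The higher one was Ifng, at 3.24 FPKM in SIRPα-KO and 0.52 FPKM in WT. Among their defining markers Cd3d was at 6.79 FPKM in SIRPα-KO and 6.29 FPKM in WT, Lck at 16.7 and 12.8, Cd3g at 0 in both libraries, Klrb1c at 0 in SIRPα-KO, and Cd3e and Ncr1 at 0 in WT. Stromal markers (8 found, 0 called) summed to 35.7 FPKM in SIRPα-KO and 27.3 FPKM in WT. Dendritic cell markers (8 found) summed to 187 FPKM in SIRPα-KO and 54.4 FPKM in WT, with 3 higher (Ccl22, Ccr7 and Dpp4) and 1 lower (Itgax), and most of the difference in this sum was the chemokine Ccl22, at 139 FPKM in SIRPα-KO and 11.2 FPKM in WT. Their part in the values of the 40 genes was not tested.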

How the data were processed

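RNA-seq of 1 SIRPα-KO and 1 WT library of mixed macrophages was analysed. The authors deposited 1 table per library with a value per gene that was taken to be FPKM. The tables name no unit, and FPKM was inferred from low values that step with transcript length and from sums that differ (433460 in SIRPα-KO, 444294 in WT). The submitters' processing notes name mm9, R 3.3.3 and DESeq2 with no role; neither these notes nor the labels give the aligner, the counting program or the use of strand.

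From these values log2((SIRPα-KO + 1)/(WT + 1)) was computed per gene, and a gene was called at a 2-fold difference. With 1 library per group no test was possible and no p-value is given. Depth was estimated from low values of genes with a single transcript, of which 73.8% (SIRPα-KO) and 76.7% (WT) were at most 0.15 from whole reads at a depth of 11000000 reads, against 30% for values with no step. These shares come from the same values that gave the depth, so they are no separate check of it. Read numbers and counting intervals rest on this estimate. At this depth 10 reads on 2 kb equal 0.455 FPKM. Reads per gene were estimated with lengths from GENCODE release 21 for mouse, and give exact Clopper-Pearson 95% intervals that cover counting error only. RefSeq windows, neighbours and overlaps are of GRCm38, later than mm9.

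The 40 genes, the other lists and the E2F motif were chosen with earlier results of these data known. Named genes were all 40, the called genes (up to 4 per direction) and the most abundant gene of each other list of the pathway, and Sirpa; markers of other cell types are given as summed levels, and the genes named among them, like all other genes, were named after their values were seen. The call step was checked on simulated reads, with changes well beyond 2-fold set in genes at a mean of 5 FPKM or more. Most of the 40 genes, Mcm6 and Ccne1 among them, lie below that mean, so recovery of calls at their level was not checked. These simulated reads carry counting error only and say nothing of the spread between mice or cultures. Alternatives were other pseudocounts, filters, scalings and fold limits. Python 3.11.15, pandas 2.3.3 and scipy 1.17.1 were used.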

Additional observations from a re-analysis of the deposited data

How the results depend on the processing

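Ccnd1, Mcm6, Cdt1 and Ccne1 were called lower under every pseudocount, filter and scaling tried. With a pseudocount of 0.1 the number of lower genes among the 40 was 9, the added ones being Mcm5, Ccnb2, Plk1, Bub1 and E2f2, while 7.51% of all genes were then called lower. With a fold limit of 3 the number was 2 (Ccnd1 and Mcm6), against 0.861% of all genes. With a limit of 1.5 there were 5 lower and 2 higher (Mki67 and Ccne2), against 6.62% and 7.03% of all genes. The mean log2 ratio of the 40 genes was -0.28, against the median of -0.15. The median of the licensing genes was -0.51 with a pseudocount of 0.1 and -0.53 with either filter on low values. That of the mitotic genes was -0.61 with a pseudocount of 0.1 and -0.45 with 0.5, and that of the inhibitors 0.39 with either filter. Such a filter can keep a gene through the library where it is high. Mcm5 (0.96 FPKM in SIRPα-KO, 2.09 in WT) and Mcm10 (0.99 and 1.61) reached 1 FPKM in WT alone, while Mcm2, Mcm7 and Cdc6 dropped out. The filtered medians are therefore no support for a larger difference. The median of the G1 cyclins and kinases lay near 0, and was -0.01 with the median ratio scaling. By construction, a pseudocount of 1 holds ratios of small values near equality. No paired analysis was possible because each genotype has 1 library, and leaving out a library was not possible for the same reason. Values under about 0.455 FPKM on a 2 kb transcript rest on fewer than 10 reads.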
